A study of Arabidopsis thaliana with 44 samples.

Results

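The 10 genes described here belong to the low-oxygen response of Arabidopsis thaliana, and were taken by locus from the 34262 genes of the deposited tables: ADH1 (AT1G77120), PDC1 (AT4G33070), LBD41 (AT3G02550), HRE1 (AT1G72360), HRE2 (AT2G47520), PCO1 (AT5G15120), PCO2 (AT5G39890), HB1 (AT2G16060), HUP9 (AT5G10040) and SAD6 (AT1G43800). All 10 had a row in each of the 44 RNA-seq libraries. The study concerns PSY peptides, small sulfated ligands, their receptors PSYR1, PSYR2 and PSYR3, and tyrosylprotein sulfotransferase (TPST), the enzyme that sulfates PSY and other peptides. Plants of every group were labelled 7 days old, and the labels do not say what separates the replicates, so that p-values measure only the spread between these libraries, which may be technical. Roots came from tpst-1 mutants treated with 1 uM PSY5 (3 libraries), from tpst/psyr1,2,3 quadruple mutants (3) and from untreated tpst-1 mutants (3). Shoots came from psyr1,2,3 triple mutants (4), tpst/psyr1,2,3 quadruple mutants (4), tpst-1 mutants treated with 1 uM PSY5 (4), untreated tpst-1 mutants (4) and wild type (4). Whole seedlings were all tpst-1, at 0 h (no treatment label) and after 2 h, 6 h, 24 h and 7 d of 1 uM PSY5, with 3 libraries a time. The 7 d of PSY5 equal the labelled age of these plants, so that the 7 d group is not an older stage than the 24 h group. Every root and every seedling library therefore carried tpst-1, with no wild type beside it. No untreated seedlings of matched time were analysed here, so that the time elapsed, handling and PSY5 cannot be told apart in that series.

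Plant cells sense oxygen through the N-degron pathway. When oxygen is present, plant cysteine oxidases such as PCO1 and PCO2 oxidise the N-terminal cysteine of group VII ethylene response factors (RAP2.12, RAP2.2, RAP2.3, HRE1 and HRE2), which marks these factors for destruction. When oxygen falls they persist and switch on a core set of genes, among them PDC1 and ADH1, whose enzymes carry out ethanolic fermentation, HB1, a phytoglobin that scavenges nitric oxide, LBD41, a LOB-domain transcription factor, and PCO1 and PCO2 themselves. SAD6 encodes a stearoyl-acyl carrier protein desaturase, an enzyme of fatty acid unsaturation, and HUP9 was named as a hypoxia-induced gene of unknown function. No sample was labelled as exposed to low oxygen.

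Group VII factors are known to act through a promoter element whose shared letters were searched here as AAACCA-NNN-GC, with any base at N. The sequences upstream of the 10 genes were read from the RefSeq genome and annotation (TAIR10.1), in which all 10 loci were found, and 500 bases before each annotated gene start were searched on both strands. A match to AAACCA-NNN-GC was found upstream of 2 of the 10 genes, ADH1 among them, and upstream of 441 of 27443 protein-coding genes (1.61%). A match is a description of letters and not a binding site, and with any base allowed at N it need not be the full element. A G-box, CACGTG, a motif bound by bZIP and bHLH factors, was held by 2 of the 10 windows, that of ADH1 among them, and by 9.35% of all these windows. The 250 bases nearest the ADH1 gene are shown because they held both motifs and because ADH1 took a course of its own in the seedling series described below; capitals mark the AAACCA-NNN-GC match and the G-box, and the last base is the one before the gene start.
ADH1, chr1:28975005-28975254, plus strand: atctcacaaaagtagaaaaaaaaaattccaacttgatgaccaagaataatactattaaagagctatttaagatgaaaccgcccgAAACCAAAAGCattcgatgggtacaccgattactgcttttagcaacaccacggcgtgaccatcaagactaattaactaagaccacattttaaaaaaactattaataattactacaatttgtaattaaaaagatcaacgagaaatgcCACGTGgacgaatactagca
The ADH1 gene spans chr1:28975255-28977417 on the plus strand, so that the stretch shown ends where the gene begins. The ADH1 match to AAACCA-NNN-GC lay 166 to 156 bases before the gene start and read AAACCAAAAGC. A second copy of the shorter core AAACCA lay 471 to 466 bases before the start, outside the stretch shown. This core, which is part of the longer motif, was held by 7 of the 10 windows and by 47.3% of all windows. Its 16 copies upstream of members all ran in the direction of the gene, where 53.5% of the 18877 copies upstream of all genes did so and 64.5% of the 31 copies upstream of 41 further low-oxygen genes. GCCGCC, the box bound by many ethylene response factors, was found in 0 of the 10 windows and in 4.12% of all windows, and no match says only that these letters were not in this window.

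Levels are given as TPM, a read share corrected for transcript length, as the authors deposited them, and fold changes come from edgeR's quasi-likelihood test on the deposited estimated read counts, with Benjamini-Hochberg adjustment over all genes tested and calls at an adjusted p below 0.05. Libraries held 3.21 to 4.13 M reads in roots, 8.61 to 16.8 M in shoots and 9.88 to 15.4 M in seedlings. In shoots and seedlings the low read counts moved in steps of 1.93 to 1.99, so that these totals stand for 4.42 to 8.71 M fragments in shoots and 5.01 to 7.74 M in seedlings. In the deposited tables TPST RNA averaged 6.70 ± 1.59 TPM in tpst-1 shoots and 8.56 ± 0.60 TPM in WT shoots (SD, n = 4 each) with overlapping libraries, so that the level of its transcript does not check the labels. The psyr1,2,3 label is not checked by any RNA level given here. The tissue labels went with their markers: 5 root markers summed to 191.5 to 243 TPM in root libraries, and in shoot libraries to 7.98 TPM in tpst-1 replicate 4 and to 0 to 2.94 TPM in the others. The 7 shoot markers summed to 35.6 to 102 TPM in roots. Replicate 1 of the tpst-1 shoots stood apart, with a mean correlation of 0.893 with the rest of its own group.

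The strongest pattern of the 10 genes was in the seedling series, where 9 of the 10, HRE2 among them, had their highest mean of all 13 groups at 0 h. The share of all genes with their highest mean there was not counted. At 2 h of PSY5, 9 of the 10 were lower than at 0 h and none was higher, where 8.01% of all 21069 genes tested were lower and 4.53% higher. At 6 h, 24 h and 7 d all 10 were lower. Leaving aside HRE2, which was detected above the filter only at 0 h, 8 of 9 were lower at 2 h and 9 of 9 at each later time. The share of all genes that was lower at these times was 8.56%, 8.63% and 10.8%, and the share that was higher was 5.89%, 5.43% and 8.53%. The libraries at 0 h lay above all later libraries of the series for all 10 genes, HRE2 included, at each of the 4 times. How many of all genes did so was not counted. The 4 comparisons share the 0 h libraries, so that a high 0 h group would move them all.

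**Figure D1:**
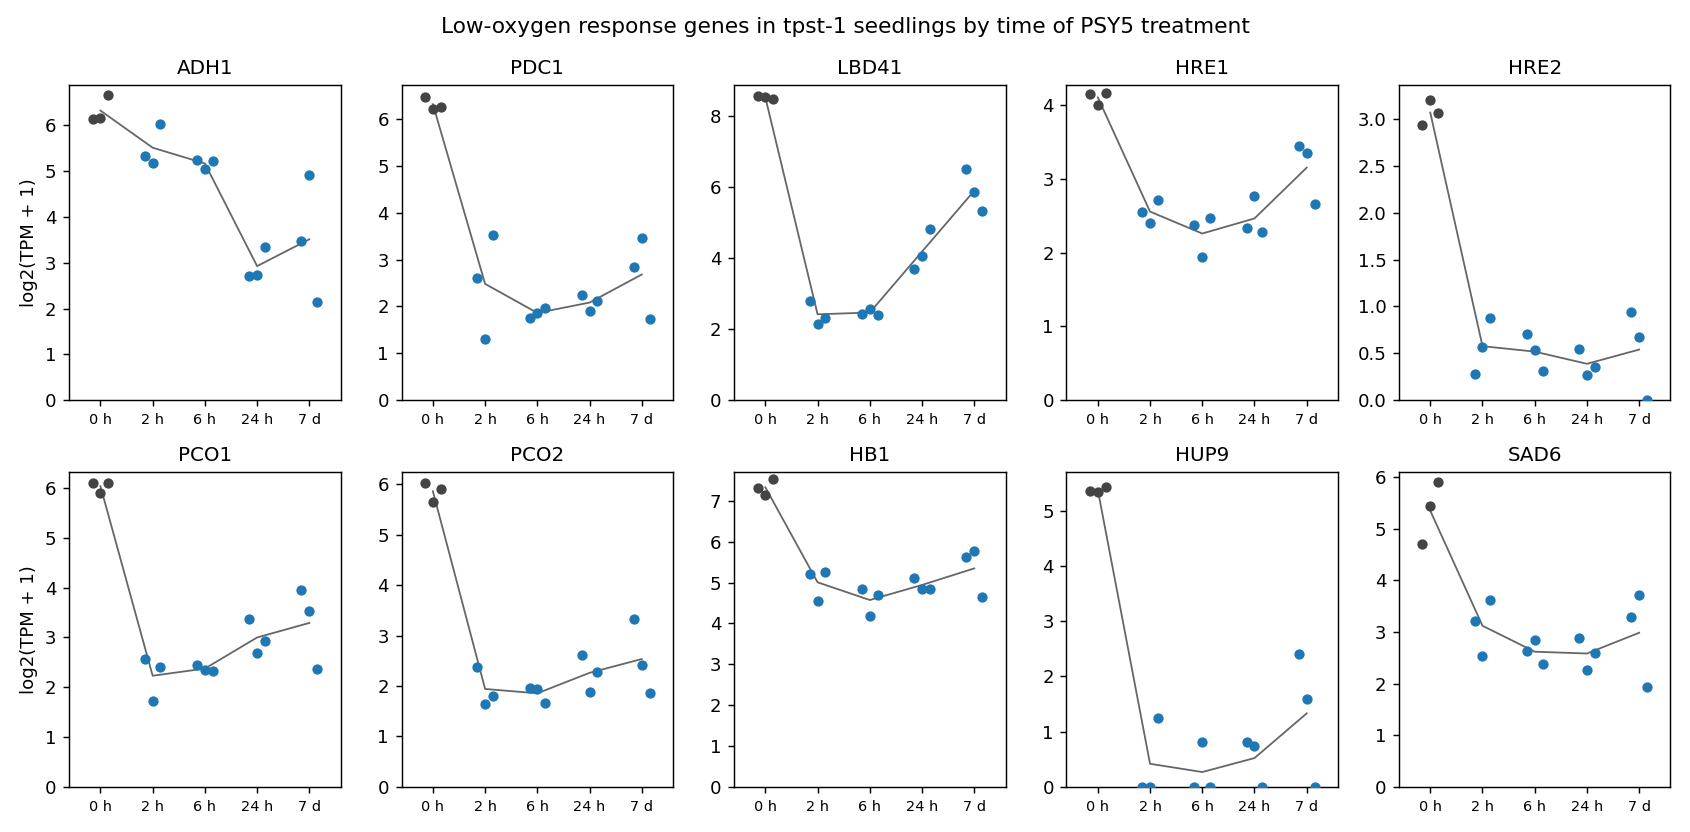
Levels of the 10 genes in tpst-1 seedlings, as log2(TPM + 1), against time of PSY5 treatment (0 h, 2 h, 6 h, 24 h, 7 d). Points are libraries, 3 a time, and the line joins their means. The 7 d plants had the same labelled age as the others, so that the line does not end at a later age. All 10 genes stood highest at 0 h, LBD41 had a mean of 4.44 TPM at 2 h and 62.0 TPM at 7 d, and ADH1 was lowest at 24 h.

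Among the regulators, LBD41 had 376, 369 and 357 TPM in the 3 libraries at 0 h. It had 5.89, 3.43 and 3.98 TPM at 2 h, and 4.42, 4.89 and 4.29 TPM at 6 h. All 6 of these later libraries lay far below the 0 h libraries, and the early pair of times overlapped. At 24 h LBD41 had 11.9, 15.5 and 27.0 TPM, and at 7 d it had 90.0, 57.1 and 39.0 TPM. LBD41 was lower than at 0 h by log2 fold changes of -6.41 ± 0.29 (SE) at 2 h and -2.58 ± 0.22 at 7 d (edgeR adjusted p = 7.32e-13 and 3.22e-08). Its level was higher by 1.98 ± 0.30 at 24 h than at 6 h (edgeR adjusted p = 0.00101) and by 1.80 ± 0.24 at 7 d than at 24 h (edgeR adjusted p = 3.74e-05), and neither pair of groups overlapped. At 24 h against 6 h, 1 of the 10 members rose and 1 fell, where 0.769% of all genes rose and 1.08% fell. At 7 d against 24 h, 2 were higher, where 5.16% of all genes were higher and 4.6% lower. Between 6 h and 2 h no member passed by edgeR, where 0.019% of all genes did, 2 members had an unadjusted p below 0.05, and DESeq2 and limma called 0. At 24 h against 2 h LBD41 rose by 2.03 ± 0.30 and ADH1 changed by -2.78 ± 0.43 (SE; edgeR adjusted p = 0.000401 and 0.000638), where 1.49% of all genes rose and 1.58% fell.

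PCO1, an oxygen-sensing oxidase, had 68.1, 59.1 and 67.4 TPM at 0 h, and 4.92, 2.29 and 4.32 TPM at 2 h. PCO2, its close relative, had 64.3, 49.0 and 59.0 TPM at 0 h, and 4.16, 2.14 and 2.495 TPM at 2 h. Both oxidases changed by over 4 units on the log2 scale, PCO1 by -4.10 ± 0.27 and PCO2 by -4.47 ± 0.26 (SE; edgeR adjusted p = 2.79e-10 and 2.95e-11). At 7 d PCO1 had 14.6, 10.6 and 4.18 TPM, and PCO2 had 9.10, 4.31 and 2.63 TPM. Against 2 h, these 7 d levels were higher by 1.34 ± 0.29 for PCO1 and 0.99 ± 0.29 for PCO2 (SE; edgeR adjusted p = 0.00457 and 0.0328), with overlapping libraries. In that comparison, 7 d against 2 h, 4 of the 10 genes were higher (LBD41, PCO1, PCO2 and HRE1) and 1 lower (ADH1), where 5.6% of all genes were higher and 4.41% lower. The PCO1 difference had adjusted p = 0.0847 by limma on log2(TPM + 1). The PCO2 difference had adjusted p = 0.0548 by DESeq2, 0.122 and 0.104 without replicates 2 and 3 of 2 h, and 0.307 without replicate 1 of 7 d. The HRE1 difference, 0.76 ± 0.21 (SE; edgeR adjusted p = 0.0214), had adjusted p = 0.118 by limma on log2(TPM + 1), and between 0.0857 and 0.111 in edgeR without replicate 1 or 2 of either time.

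The ethylene response factors moved less or stood lower. HRE1 had 16.8, 15.1 and 17.0 TPM at 0 h, 4.85, 4.31 and 5.60 TPM at 2 h, and 9.94, 9.23 and 5.33 TPM at 7 d. It was lower than at 0 h by -1.73 ± 0.20 at 2 h and by -0.97 ± 0.19 at 7 d (SE; edgeR adjusted p = 2.06e-06 and 0.000783). HRE1 was higher at 7 d than at 24 h, by 0.84 ± 0.21 (SE; edgeR adjusted p = 0.0125), with overlapping libraries. That difference had adjusted p = 0.0735 by limma on log2(TPM + 1), and between 0.0527 and 0.0734 in edgeR without replicate 1 or 3 of 24 h or replicate 1 or 2 of 7 d. HRE2 had 6.67, 8.22 and 7.38 TPM at 0 h, and its 12 later libraries lay between 0 and 0.92 TPM. HRE2 thus passed the filter on low values, a TPM of 1 in 3 libraries, only through the 0 h libraries and had to differ from them. Its fitted change of -3.84 at 2 h is given as a description, with no test.

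The fermentation genes parted from each other, a difference that was not itself tested. PDC1, pyruvate decarboxylase, the first enzyme of ethanolic fermentation, had 87.7, 73.3 and 75.9 TPM at 0 h, and 5.12, 1.49 and 10.4 TPM at 2 h. It was lower by -3.82 ± 0.38 at 2 h and by -4.94 ± 0.42 at 6 h (SE; edgeR adjusted p = 1.89e-07 and 1.57e-08). ADH1, alcohol dehydrogenase, the second enzyme, had 69.6, 71.0 and 99.99 TPM at 0 h, 39.4, 35.3 and 63.9 TPM at 2 h, and 36.7, 32.1 and 36.2 TPM at 6 h. The 2 h and 0 h libraries of ADH1 did not overlap, but the change of -0.84 ± 0.36 did not pass (SE; edgeR adjusted p = 0.153). It did pass in edgeR with only these 2 groups fitted (adjusted p = 0.00461) and with no filter on low values (adjusted p = 0.0399). At 6 h the change of -1.23 ± 0.37 passed (edgeR adjusted p = 0.0267), and it had adjusted p = 0.134 by DESeq2 and between 0.0655 and 0.111 in edgeR with replicate 3 of 0 h or any 1 library of 6 h left out. ADH1 then had 5.54, 5.64 and 9.10 TPM at 24 h, a further change of -2.38 ± 0.43 against 6 h (SE; edgeR adjusted p = 0.00516), which had adjusted p = 0.0821 by limma on log2(TPM + 1). LBD41 rose over the same interval, as described above. At 7 d ADH1 spread widely, with 10.1, 29.2 and 3.44 TPM.

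HB1, the phytoglobin, had 158, 139.9 and 186 TPM at 0 h, 36.1, 22.3 and 37.4 TPM at 2 h, and 48.4, 53.8 and 24.0 TPM at 7 d. Its log2 changes against 0 h lay between -2.84 ± 0.21 at 6 h and -1.97 ± 0.19 at 7 d (SE; edgeR adjusted p = 1.35e-09 and 1.87e-07). SAD6, the desaturase, had 25.0, 42.2 and 58.8 TPM at 0 h, and 8.22, 4.80 and 11.2 TPM at 2 h. It changed by -2.40 ± 0.34 at 2 h and by -3.08 ± 0.37 at 24 h (SE; edgeR adjusted p = 2.83e-05 and 2.24e-06). HUP9, of unknown function, had 40.1, 39.6 and 42.4 TPM at 0 h, from 165 fragments in all. Over the 3 libraries of a time it had 2 fragments at 2 h, 1 at 6 h, 2 at 24 h and 10 at 7 d. Per fragment sequenced, HUP9 was 83.6-fold lower at 2 h (95% exact interval 22.8 to 696) and 19.8-fold lower at 7 d (10.5 to 42). These intervals cover counting error only.

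At 7 d, replicate 3 was the lowest library for all 8 members that had reads in all 3 libraries. Without it, 6 further members passed at 7 d against 24 h: ADH1, PDC1, PCO1, PCO2, HB1 and SAD6, with log2 changes between 0.76 (HB1, edgeR adjusted p = 0.00695) and 1.55 (ADH1, edgeR adjusted p = 0.0056). With it, LBD41 and HRE1 were the members that passed. Replicate 3 was picked for its low member levels, so that leaving it out had to raise the 7 d means of these 6 members. Those passes are therefore a description and no support. The part of replicate 3 in the 7 d values was not tested further.

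Of 41 further genes known to respond to low oxygen, 40 were tested in seedlings. At 2 h 37 of them fell and 0 rose, and the counts were 38 and 0 at 6 h, 37 and 0 at 24 h, and 36 and 1 at 7 d, in each case with 1 gene among those lower, AT2G17850, that passed the filter only through 0 h. The shares of all genes are those given for the members, 8.01% lower and 4.53% higher at 2 h. Their median log2 change was -2.33 at 2 h, against 0.00 for all genes tested, while the 10 members, HRE2 included, had a median of -3.83. AT4G24110 changed by -4.96 ± 0.22, EXL1 (AT1G35140) by -3.52 ± 0.15 and RBOHD, an NADPH oxidase that makes reactive oxygen species, by -1.83 ± 0.08 at 2 h (SE; edgeR adjusted p = 4.73e-13, 4.6e-13 and 4.24e-13). Of 12 tested genes of fermentation and respiration, 8 fell and 0 rose at 2 h, against the same shares of all genes. This list shares genes with the 41 above, PDC2 and SUS4 among them, so that the counts are not separate. ALAAT1, an alanine aminotransferase, changed by -0.93 ± 0.07, LDH1, lactate dehydrogenase, by -1.15 ± 0.10, and PDC2, the second pyruvate decarboxylase, by -0.95 ± 0.10 (SE; edgeR adjusted p = 1.08e-09, 3.42e-08 and 2.33e-07).

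Of 11 further genes of the oxygen-sensing pathway, a list that leaves out PCO1, PCO2, HRE1 and HRE2, 2 passed at 2 h, where 8.01% of all genes were lower, RAP2.2 with a change of -0.28 ± 0.06 and RAP2.3 with -0.26 ± 0.06 (SE; edgeR adjusted p = 0.00401 and 0.00712). At 24 h the changes of all 11 lay between -0.19 and 0.24. Among 8 relatives of the members, LBD38, a LOB-domain regulator of nitrogen responses, changed by -0.64 ± 0.09 at 2 h (SE; edgeR adjusted p = 2.44e-05). LBD40, a LOB-domain gene like LBD41, had a fitted change of -5.21 at 2 h, given without a test because it passed the filter on low values only through the 0 h libraries.

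Genes induced by touch moved in the same direction as the members. The 3 touch genes TCH2, TCH3 and TCH4 summed to 516 to 590.3 TPM at 0 h and to 193.4 to 275 TPM over the 4 later times. The 9 clock genes summed to 152 to 185 TPM at 0 h and to 150.3 to 197 TPM later, and these sums overlapped. A sum can hide shifts in opposite directions. Against 0 h, 1 of the 9 was higher and 2 were lower at 2 h, and 2 were higher and 2 lower at 6 h. At 24 h 1 was higher and 1 lower, and at 7 d 3 were higher and 4 lower. The shares of all genes are those given for the members. The 7 shoot markers summed to 25440 to 26800 TPM at 7 d, against 19760 to 21480 TPM at 0 h, with no overlap. At 7 d all 7 of them were higher than at 0 h, with a median log2 change of 0.61, 3 were higher at 6 h, and at 2 h and 24 h 0 passed by edgeR. The root markers summed to 15.4 to 20.9 TPM at 7 d, against 13.9 to 20.1 TPM at 0 h, and overlapped. The part of handling, time of harvest or the share of shoot tissue in the lower levels of the members was not tested.

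In roots, 5 of the 10 genes were lower with PSY5 than without it, and 5 were lower in tpst/psyr1,2,3 than in tpst-1, with none higher in either comparison. Of all 19958 genes tested, 7.69% were lower and 7.52% higher with PSY5, and 7.5% were lower and 7.9% higher with receptor loss. The median log2 change of the 10 was -0.87 with PSY5 and -0.95 with receptor loss, against 0.00 for all genes in both. ADH1, LBD41, PCO1 and HB1 fell in both comparisons, PCO2 with PSY5 and SAD6 with receptor loss. The 2 comparisons share the tpst-1 libraries, so that they are not independent of each other.

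**Figure D2:**
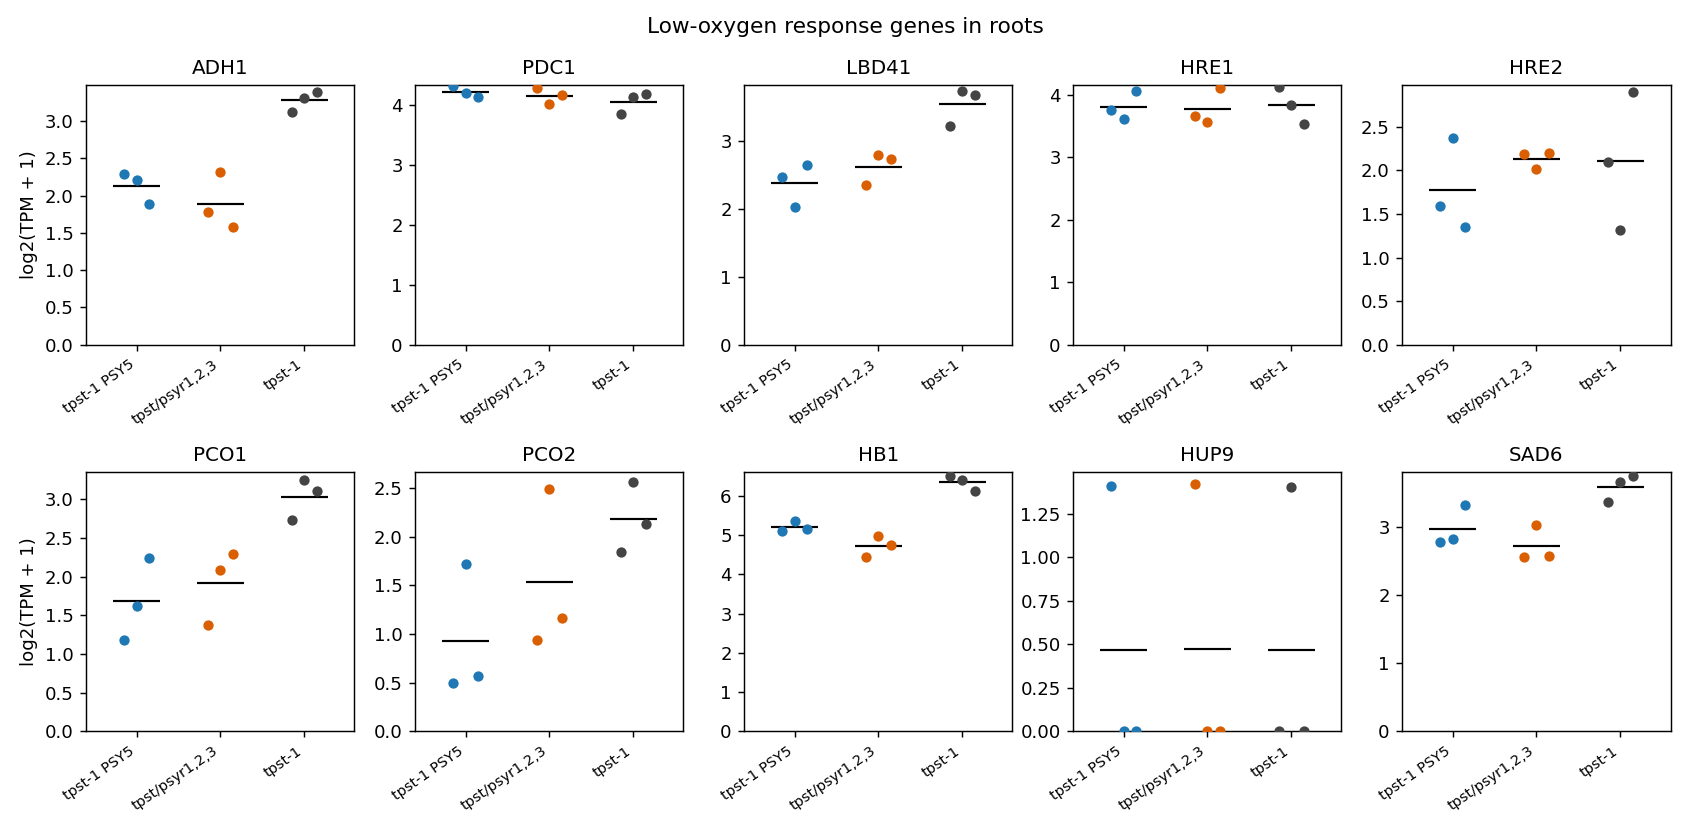
Levels of the 10 genes in roots as log2(TPM + 1), for tpst-1 with 1 uM PSY5, tpst/psyr1,2,3 and untreated tpst-1; points are libraries, 3 a group, and bars are means. For ADH1, LBD41, PCO1 and HB1 all 6 libraries of the first 2 groups lay below the 3 tpst-1 libraries, while PDC1 and HRE1 overlapped across the 3 groups.

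PCO1 had 1.27, 2.08 and 3.73 TPM in PSY5-treated roots and 1.61, 3.24 and 3.89 TPM in tpst/psyr1,2,3 roots, against 5.68, 8.55 and 7.64 TPM in tpst-1 roots. Neither group overlapped with tpst-1. The log2 change was -1.51 ± 0.36 with PSY5 and -1.34 ± 0.35 with receptor loss (SE; edgeR adjusted p = 0.0041 and 0.0107), and the second had adjusted p = 0.0596 by DESeq2 and 0.0723 without tpst/psyr1,2,3 replicate 1. PCO2 had 0.41, 2.299 and 0.48 TPM with PSY5, against 2.59, 4.91 and 3.36 TPM in tpst-1. Its change of -1.68 ± 0.57 was close to the threshold (edgeR adjusted p = 0.0477). It had adjusted p = 0.16 by DESeq2, and between 0.0534 and 0.19 in edgeR with any 1 tpst-1 library, or PSY5 replicate 1 or 3, left out.

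LBD41 had 4.53, 3.06 and 5.26 TPM in PSY5-treated roots and 4.07, 5.90 and 5.64 TPM in tpst/psyr1,2,3 roots, against 8.27, 12.3 and 11.8 TPM in tpst-1 roots. It changed by -1.27 ± 0.24 with PSY5 and by -1.08 ± 0.24 with receptor loss (SE; edgeR adjusted p = 0.000539 and 0.00263). HRE1 had 12.6, 11.3 and 15.6 TPM in PSY5-treated roots and 11.7, 10.8 and 16.3 TPM in tpst/psyr1,2,3 roots, against 16.5, 13.3 and 10.6 TPM in tpst-1 roots. These libraries overlapped, and the changes of HRE1 were -0.06 ± 0.19 and -0.09 ± 0.20 (SE).

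The fermentation genes parted in roots too, again with no test of the difference between them. PDC1 had 18.8, 17.3 and 16.4 TPM with PSY5 and 18.4, 15.1 and 17.0 TPM in tpst/psyr1,2,3, against 13.3, 16.6 and 17.1 TPM in tpst-1, with log2 changes of 0.19 ± 0.12 and 0.06 ± 0.12 (SE; edgeR adjusted p = 0.335 and 0.812). ADH1 had 3.91, 3.62 and 2.68 TPM with PSY5 and 2.42, 3.98 and 2.00 TPM in tpst/psyr1,2,3, against 7.70, 8.96 and 9.52 TPM in tpst-1. ADH1 changed by -1.34 ± 0.24 and -1.67 ± 0.26 (SE; edgeR adjusted p = 0.000314 and 5.47e-05).

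HB1 was the most abundant member in roots, with 33.2, 39.9 and 34.4 TPM in PSY5-treated roots and 20.7, 30.2 and 25.9 TPM in tpst/psyr1,2,3 roots, against 90.3, 84.2 and 68.7 TPM in tpst-1 roots. It changed by -1.14 ± 0.14 with PSY5 and by -1.66 ± 0.15 with receptor loss (SE; edgeR adjusted p = 2.16e-06 and 2.74e-08). The quadruple mutant libraries also lay below the PSY5 libraries, and that difference of -0.53 ± 0.17 did not pass (SE; edgeR adjusted p = 0.22). SAD6 had 5.84, 6.04 and 9.001 TPM with PSY5 and 4.91, 7.16 and 4.94 TPM in tpst/psyr1,2,3, against 9.25, 11.7 and 12.5 TPM in tpst-1. Its change with receptor loss, -1.01 ± 0.23, passed (SE; edgeR adjusted p = 0.00326), and that with PSY5, -0.61 ± 0.21, did not (edgeR adjusted p = 0.0608), though no libraries overlapped. Without tpst-1 replicate 1 or PSY5 replicate 3 the PSY5 change passed too (edgeR adjusted p = 0.0405 and 0.0147). HUP9 had 1 fragment in each of the 3 root groups, and HRE2 lay between 1.48 and 6.48 TPM in all root libraries.

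No member differed between tpst/psyr1,2,3 and PSY5-treated tpst-1 roots by edgeR, where 0.536% of all genes passed. In that comparison 1 of the 10 had an unadjusted p below 0.05, and DESeq2 and limma called 0. Of 37 further low-oxygen genes tested in roots, 14 fell and 2 rose with PSY5, and 14 fell and 2 rose with receptor loss, where 7.69% and 7.5% of all genes fell and 7.52% and 7.9% rose. EXL1 changed by -2.77 ± 0.25 with PSY5 and by -3.15 ± 0.27 with receptor loss, and RBOHD by -1.26 ± 0.13 and -1.07 ± 0.13 (SE; edgeR adjusted p = 2.68e-08, 1.02e-08, 1.82e-07 and 1.84e-06). RAP2.3, a group VII factor, changed with PSY5 by -1.36 ± 0.18, while ACBP2, an acyl-CoA binding protein of the sensing pathway, rose by 0.65 ± 0.14 (SE; edgeR adjusted p = 7.3e-06 and 0.00192). SUS4, a sucrose synthase, changed by -0.67 ± 0.11, and PDC2 rose by 0.50 ± 0.11 (SE; edgeR adjusted p = 9.31e-05 and 0.00246). The touch genes summed to 103 to 194 TPM in PSY5-treated roots and to 136 to 189.9 TPM in tpst/psyr1,2,3 roots, against 334 to 520.0 TPM in tpst-1 roots, and the 9 clock genes summed to 233 to 257 TPM and 225 to 260.3 TPM, against 183 to 218 TPM. The 5 root markers summed to 202 to 213 TPM in PSY5-treated roots and to 235.5 to 243 TPM in tpst/psyr1,2,3 roots, against 191.5 to 195.6 TPM in tpst-1 roots, with no overlap, and in both comparisons 3 of the 5 were higher and 1 lower. The part of any of these in the fall of the members was not tested.

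In shoots 9 of the genes could be tested, because HUP9 had at most 1 fragment in each shoot group. In tpst-1 shoots against WT shoots 2 of the 9 fell and 1 rose, where 2.14% of all 20723 genes fell and 7.07% rose. In psyr1,2,3 shoots against WT shoots 0 of the 9 passed, where 1.82% of all genes did. With PSY5, 1 of the 9 rose in tpst-1 shoots, where 1.32% of all genes rose and 3.84% fell. In tpst/psyr1,2,3 against tpst-1 shoots 1 was higher and 1 lower, where 5.18% of all genes were higher and 9.78% lower. Between the receptor mutants, tpst/psyr1,2,3 against psyr1,2,3, 5 of the 9 were lower, where 0.29% of all genes were lower and 0.169% higher.

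**Figure D3:**
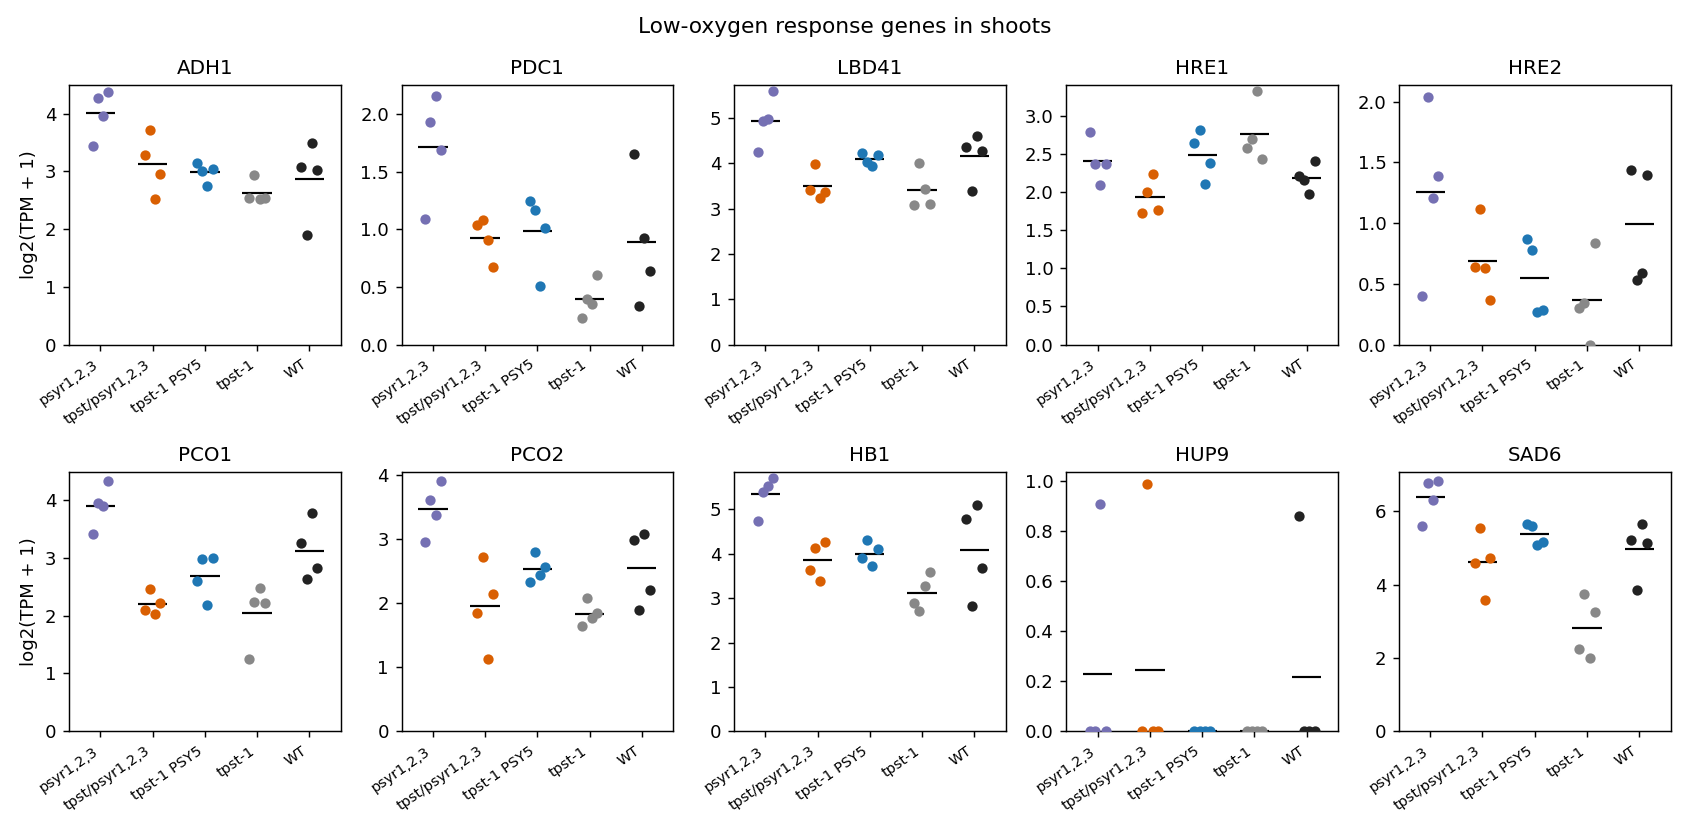
Levels of the 10 genes in shoots as log2(TPM + 1), for psyr1,2,3, tpst/psyr1,2,3, tpst-1 with 1 uM PSY5, tpst-1 and WT; points are libraries, 4 a group, and bars are means. The psyr1,2,3 group had the highest mean of the 5 groups for 8 of the 9 genes tested, HRE1 being highest in tpst-1.

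SAD6 showed the widest range. It had 47.5, 108, 78.1 and 113 TPM in psyr1,2,3 shoots and 23.0, 45.7, 10.9 and 25.4 TPM in tpst/psyr1,2,3 shoots. It had 49.5, 47.1, 32.6 and 34.9 TPM in PSY5-treated tpst-1 shoots and 3.75, 12.4, 2.99 and 8.52 TPM in tpst-1 shoots, against 36.3, 13.5, 49.4 and 34.3 TPM in WT shoots. All 4 tpst-1 libraries lay below all WT and all PSY5 libraries. SAD6 changed by -2.20 ± 0.42 in tpst-1 against WT, by 2.40 ± 0.42 with PSY5 against tpst-1, and by 1.64 ± 0.41 in tpst/psyr1,2,3 against tpst-1 (SE; edgeR adjusted p = 0.00118, 0.00108 and 0.00958). The last had an edgeR adjusted p of 0.0565 without tpst/psyr1,2,3 replicate 2. In psyr1,2,3 against WT the change was 1.25 ± 0.39 (SE; edgeR adjusted p = 0.107). The 3 SAD6 calls passed without tpst-1 replicate 1 too, the library that stood apart. The touch genes summed to 223 to 303 TPM in PSY5-treated tpst-1 shoots and to 90.1 to 182 TPM in tpst/psyr1,2,3 shoots, against 428 to 786 TPM in tpst-1 shoots, and their part was not tested.

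PCO1 had 1.37, 3.70, 4.53 and 3.67 TPM in tpst-1 shoots, against 8.57, 5.21, 12.6 and 6.06 TPM in WT shoots, a change of -1.21 ± 0.29 (SE; edgeR adjusted p = 0.00788) with no overlap. With these 2 groups fitted alone the PCO1 change had an edgeR adjusted p of 0.0532. HRE1 had 4.99, 5.47, 9.01 and 4.41 TPM in tpst-1 shoots, against 3.61, 3.46, 2.94 and 4.30 TPM in WT shoots, and was the member that rose there, by 0.88 ± 0.25 (SE; edgeR adjusted p = 0.0279). The HRE1 call had adjusted p = 0.12 by limma on log2(TPM + 1), and between 0.0598 and 0.0933 with any 1 of 5 libraries left out (WT replicates 1, 2 and 3, tpst-1 replicates 1 and 3). In tpst/psyr1,2,3 shoots HRE1 had 2.29, 3.01, 3.73 and 2.39 TPM, a change of -1.40 ± 0.26 against tpst-1 (SE; edgeR adjusted p = 0.000739), and no libraries overlapped. The effect of tpst-1 on HRE1 differed between receptor mutant and receptor-proficient shoots by -1.39 ± 0.36 (SE; edgeR adjusted p = 0.0397, and 0.0719 with the replicate number as a block), where the difference passed for 2.77% of all genes and for no other member.

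Of the other members, PDC1, LBD41, HRE2, PCO2 and HB1 had fitted changes between -1.53 and -0.67 in tpst-1 against WT shoots that did not pass (edgeR adjusted p between 0.0692 and 0.224). Within WT shoots, replicate 2 was the lowest library for 8 of the 9 members with reads in all 4 libraries: its HB1 level was 6.07 TPM, against 26.4, 33.2 and 11.8 TPM in replicates 1, 3 and 4. Without it, 5 members passed in tpst-1 against WT, PDC1 (-1.78), LBD41 (-0.88) and HB1 (-1.40) joining PCO1 and SAD6, while HRE1 no longer did. Replicate 2 was picked for its low member levels, so that leaving it out had to raise the WT means of PDC1, LBD41 and HB1. Their added passes are therefore a description and no support. HB1 passed without WT replicate 4 too (-1.27, edgeR adjusted p = 0.0455). The touch genes summed to 428 to 786 TPM in tpst-1 shoots, against 101 to 161 TPM in WT shoots. The clock genes summed to 75.9 TPM in tpst-1 replicate 1, the library that stood apart, and to 156 to 174 TPM in the other tpst-1 shoots, against 177 to 194 TPM in WT shoots. Their part in these changes was not tested.

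In psyr1,2,3 shoots 8 of the 9 members had a positive change against WT, 7 had an unadjusted p below 0.05, and 0 passed by edgeR after adjustment. Of all genes 1.82% passed after adjustment. The shares of all genes with a positive change or such an unadjusted p were not counted. DESeq2 and limma on log2(TPM + 1) each called 1, ADH1. ADH1 had 9.87, 18.3, 14.6 and 19.8 TPM in psyr1,2,3 shoots, against 7.47, 2.75, 10.2 and 7.12 TPM in WT shoots, a change of 1.04 ± 0.30 (SE; edgeR adjusted p = 0.08). Replicate 1 was the lowest psyr1,2,3 library for 8 of the 9 members. The clock genes summed to 204 to 229 TPM in psyr1,2,3 shoots, against 177 to 194 TPM in WT shoots, and their part was not tested.

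With PSY5, PCO2 had 4.01, 5.93, 4.43 and 4.92 TPM in tpst-1 shoots, against 2.119, 3.22, 2.41 and 2.59 TPM in untreated tpst-1 shoots. HB1 had 13.9, 18.8, 12.1 and 16.2 TPM with PSY5, against 6.36, 5.55, 8.70 and 11.02 TPM without it. Neither gene had overlapping libraries, and neither change passed, with 0.74 ± 0.34 for PCO2 and 0.66 ± 0.37 for HB1 (SE; edgeR adjusted p = 0.214 and 0.311). PSY5-treated tpst-1 shoots differed from WT shoots in 0 of the 9 members by edgeR, where 5.1% of all genes passed, 1 member had an unadjusted p below 0.05, and DESeq2 and limma called 0. In tpst/psyr1,2,3 shoots 2 of the 9 were lower than in WT, LBD41 by -0.95 ± 0.28 and PCO1 by -1.41 ± 0.29 (SE; edgeR adjusted p = 0.0408 and 0.00418), where 3.45% of all genes were lower and 3.6% higher. The LBD41 call had adjusted p = 0.158 by limma on log2(TPM + 1), and between 0.0778 and 0.126 in edgeR without WT replicate 1, 3 or 4 or tpst/psyr1,2,3 replicate 1, 3 or 4. Between tpst/psyr1,2,3 and PSY5-treated tpst-1 shoots 0 of the 9 passed by edgeR, where 1.29% of all genes did, 4 members had an unadjusted p below 0.05, and DESeq2 and limma called 0.

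The 5 members that were lower in tpst/psyr1,2,3 than in psyr1,2,3 shoots were LBD41, PCO1, PCO2, HB1 and SAD6. PCO1 had 3.29, 4.47, 3.05 and 3.62 TPM in tpst/psyr1,2,3, against 9.55, 14.4, 13.9 and 19.1 TPM in psyr1,2,3. PCO2 had 2.59, 5.58, 1.19 and 3.42 TPM in tpst/psyr1,2,3, against 6.75, 11.1, 9.38 and 14.0 TPM in psyr1,2,3. LBD41 had 9.63, 14.9, 8.39 and 9.39 TPM in tpst/psyr1,2,3, against 17.9, 29.5, 30.8 and 47.8 TPM in psyr1,2,3. No libraries of the 2 groups overlapped for these 3 genes, which changed by -2.07 ± 0.29, -1.87 ± 0.34 and -1.66 ± 0.28 (SE; edgeR adjusted p = 0.00146, 0.013 and 0.00769). The PCO2 call had adjusted p = 0.0766 without psyr1,2,3 replicate 4, 0.0677 without tpst/psyr1,2,3 replicate 1 and 0.0531 by limma on log2(TPM + 0.1). HB1 (-1.61 ± 0.36) and SAD6 (-1.81 ± 0.40) stood closer to the threshold (SE; edgeR adjusted p = 0.0469 and 0.0406). By limma on log2(TPM + 1) their adjusted p was 0.138 and 0.136, and leaving out single libraries gave 0.0747 to 0.185 for HB1 (any but psyr1,2,3 replicate 1) and 0.0722 to 0.165 for SAD6 (any but psyr1,2,3 replicate 1 and tpst/psyr1,2,3 replicate 2). The count of members called was 2 without psyr1,2,3 replicate 4 or without tpst/psyr1,2,3 replicate 1. The touch genes summed to 90.1 to 182 TPM in tpst/psyr1,2,3 shoots, against 113 to 159.6 TPM in psyr1,2,3 shoots, and overlapped. The clock genes summed to 174.7 to 194.6 TPM, against 204 to 229 TPM, and the shoot markers to 20920 to 22480 TPM, against 23840 to 25120 TPM, both with no overlap. Of these, 2 of 9 clock genes were lower and 0 of 7 shoot markers passed, and their part in the changes was not tested.

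Of 40 further low-oxygen genes tested in shoots, 10 rose and 6 fell in tpst-1 against WT, where 7.07% of all genes rose and 2.14% fell. CML38, a calmodulin-like protein, rose by 2.98 ± 0.45, EXL1 by 2.35 ± 0.33 and AT1G05575 by 3.57 ± 0.66 (SE; edgeR adjusted p = 0.00011, 4.86e-05 and 0.00089). In psyr1,2,3 against WT 1 rose, ACO1, an enzyme of ethylene synthesis, by 1.06 ± 0.25 (SE; edgeR adjusted p = 0.0303), where 1.82% of all genes passed. That count was 0 in 5 of 8 fits with single libraries left out and at most 4, without psyr1,2,3 replicate 1, and it was 6 by DESeq2 and 5 by limma on log2(TPM + 1). With PSY5 3 rose and 7 fell, 3 in all without PSY5 replicate 2, where 1.32% of all genes rose and 3.84% fell. With receptor loss in tpst-1 5 rose and 9 fell, where 5.18% of all genes rose and 9.78% fell. CML38 changed in both, by -2.09 ± 0.42 with PSY5 and -3.99 ± 0.49 with receptor loss (SE; edgeR adjusted p = 0.00424 and 7.93e-06), and PDC2 rose with receptor loss by 1.17 ± 0.15 (SE; edgeR adjusted p = 1.51e-05). RAP2.12, a group VII factor, rose by 0.48 ± 0.10 with PSY5 and by 0.60 ± 0.10 with receptor loss (SE; edgeR adjusted p = 0.00474 and 2e-04).

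**Figure D4:**
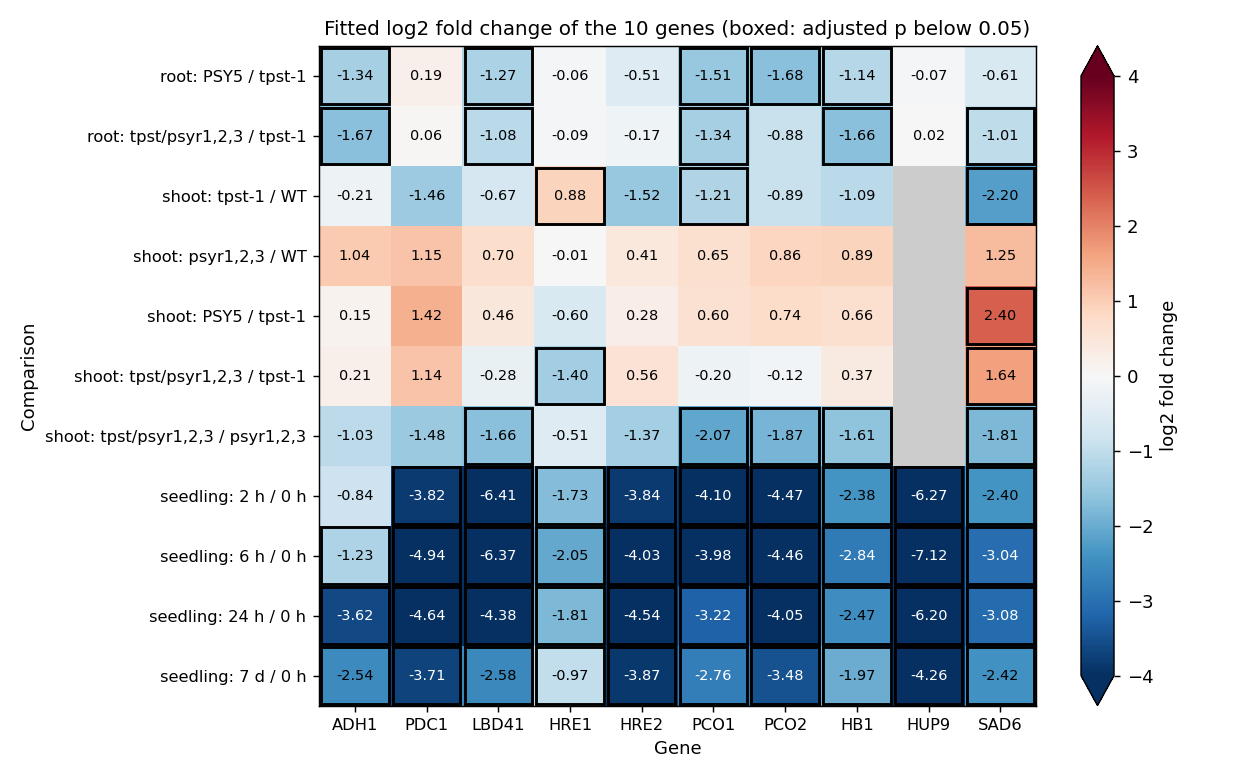
Fitted log2 fold changes of the 10 genes (columns) in 11 comparisons (rows, each written as first group over second); red is higher and blue lower in the first group, colours stop at 4 units either way, grey marks HUP9 where it was not tested, and boxes mark an adjusted p below 0.05. The 4 seedling rows hold 39 boxes of 40, those of HRE2 included, the first 2 root rows hold 5 each, and the shoot row of psyr1,2,3 over WT holds none.

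The response to PSY5 differed between shoots and roots for 2 of the 10 genes, where 3.31% of all 23144 genes did. Whether root and shoot libraries were made with the same kit is not stated in the labels. DESeq2 called 5 of the 10 and limma on log2(TPM + 1) called 6. SAD6 changed by 2.99 ± 0.68 more in shoots than in roots, and PCO1 by 2.11 ± 0.54 (SE; edgeR adjusted p = 0.011 and 0.0261). LBD41 (1.71 ± 0.50) and HB1 (1.76 ± 0.51) narrowly missed the threshold (SE; edgeR adjusted p = 0.0544 and 0.0505), and DESeq2 gave them adjusted p = 0.0109 and 0.0194. PCO2 (2.41 ± 0.77) had adjusted p = 0.0853 by edgeR, 0.0283 by DESeq2 and 0.0317 by limma, and ADH1 (1.46 ± 0.51) had 0.129 by edgeR and 0.0315 by limma (SE). The effect of receptor loss differed for 4, where 5.16% of all genes did: ADH1 (1.88 ± 0.53), HB1 (2.01 ± 0.53) and SAD6 (2.64 ± 0.71) upward in shoots relative to roots, and HRE1 (-1.33 ± 0.36) downward (SE; edgeR adjusted p = 0.0365, 0.0219, 0.0253 and 0.0292). All of these differences but that of SAD6 with PSY5 missed the threshold when certain single libraries were left out.

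Of the 10 genes, 4 differed between untreated tpst-1 roots and shoots, where 65.8% of all genes did. PDC1 had 13.3, 16.6 and 17.1 TPM in roots, against 0.17, 0.31, 0.28 and 0.52 TPM in shoots, a log2 difference of 4.72 ± 0.43 (SE; edgeR adjusted p = 6.91e-11). HB1 had 90.3, 84.2 and 68.7 TPM in roots, against 6.36, 5.55, 8.70 and 11.02 TPM in shoots, a difference of 2.36 ± 0.35 (SE; edgeR adjusted p = 1.06e-06). Among the shoots, replicate 4 was highest for both genes and also held the most root marker RNA, 7.98 TPM. Without it the differences were 4.96 for PDC1 and 2.47 for HB1 (edgeR adjusted p = 3.31e-10 and 2.32e-06). HRE2 differed by 2.52 ± 0.74 (SE; edgeR adjusted p = 0.00394), and had adjusted p = 0.0681 without tpst-1 root replicate 3. LBD41 was lower in roots by -0.80 ± 0.32 (SE; edgeR adjusted p = 0.0319), a call with adjusted p between 0.0507 and 0.15 without tpst-1 root replicate 1 or 3 or tpst-1 shoot replicate 1 or 2. By limma on log2(TPM + 1) its difference was 0.13, a setting that moved the median of all genes to 0.70, against -0.07 in the edgeR fit. Fewer cells of a type and less RNA per cell cannot be told apart in these bulk samples. Low read counts also moved in steps of 1 in roots and of 1.93 to 1.97 in shoots, and the labels do not say which kit each library had. Tissue and the making of the libraries can therefore not be told apart, which holds for the order of the 13 groups below as well.

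Across the 13 groups, SAD6 was the exception to the peak at 0 h, with 86.6 ± 30.2 TPM in psyr1,2,3 shoots (SD, n = 4) and 42.0 ± 16.9 TPM in 0 h seedlings (SD, n = 3), 2 groups that overlapped. For HRE1 the 0 h seedlings (16.3 ± 1.0 TPM) overlapped with tpst-1 roots (13.5 ± 2.9 TPM, SD, n = 3 each). For the other 8 genes, HRE2 among them, the 0 h libraries lay above every library of the group with the next mean. That mean was 1.74 times lower for ADH1 and 19.3 times lower for HUP9. How many of all genes peaked at 0 h in this way was not counted. Below the top the groups ran together: of the 12 neighbouring pairs in the order of means, the number that did not overlap was 3 for ADH1, PDC1 and LBD41, 2 for HB1, 1 for HRE1, HRE2, PCO1, PCO2 and HUP9, and 0 for SAD6. HB1, for example, stood at 161 ± 23 TPM in 0 h seedlings, 81.1 ± 11.1 TPM in tpst-1 roots and 42.0 ± 15.9 TPM in 7 d seedlings (SD, n = 3 each), and the remaining 10 groups overlapped each with the next.

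For each gene the 3 genes with the most similar pattern were taken by Pearson's r of log2(TPM + 1) over the 13 group means, after the mean of each tissue was taken off, among 17510 genes tested in all 3 tissues. These r are a description over 13 points, in which the single 0 h group carries much of the range. LBD41 was closest to AT3G10040, AT4G10270 and AT1G33055 (r = 0.993, 0.989 and 0.971), all of the further low-oxygen list. The first is HRA1, a trihelix regulator that restrains RAP2.12. PCO1 and PCO2 were close to each other (r = 0.981) and to AT3G27220 of that list (r = 0.971 and 0.983). PDC1 and HRE2 were close to each other too (r = 0.968). ADH1 was closest to APT5, an adenine phosphoribosyltransferase (AT5G11160, r = 0.931), ARF1 (AT1G23490, r = 0.892) and AT1G66880 (r = 0.882), none of them on a list used here. Its r with LBD41 was 0.275, the lowest of the 45 pairs of members. SAD6 was closest to ASP2 (AT5G19550, r = 0.956), ETR2, an ethylene receptor of the further low-oxygen list (r = 0.936), and PIRL1 (AT5G05850, r = 0.935). HB1 was closest to AT4G33560 (r = 0.982) and HUP9 to AT1G03610 (r = 0.980), while HRE1 was closest to AT5G19120 (r = 0.952).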

How the data were processed

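RNA was measured by RNA-seq in 44 Arabidopsis thaliana libraries. Per the labels' protocols, total RNA was made into libraries with TruSeq RNA v2 or NEBNext Ultra II kits, sequenced on MiniSeq or NextSeq550 instruments, with the kit of each sample not stated. The submitters' processing notes name the build TAIR10, and no quantification tool is named in the sources used here. The authors deposited, for each library, TPM values and estimated counts of reads per gene, which were used as deposited, the estimated counts rounded to whole numbers. Low estimated counts moved in steps of 1 in roots and of 1.93 to 1.99 in shoots and seedlings (95.4% to 97.5% of low values lay on the step within a tolerance of 0.05), and dividing by the step was tried as an alternative chosen after seeing the data.

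Genes that reached a TPM of 1 in 3 or more libraries (4 or more in shoots) were tested with edgeR 4.0.16 in R 4.3.3 (TMM scaling, quasi-likelihood test, all groups of a tissue in 1 fit, roots and shoots together for differences between tissues), with Benjamini-Hochberg adjustment over all genes tested. This gave 19958 genes in roots, 20723 in shoots, 21069 in seedlings and 23144 for roots and shoots together. The SE printed with an edgeR change was worked back from its test. It is the size of the change divided by the square root of the F statistic. The procedure was tested on simulated counts. Alternatives were DESeq2 1.42.0, limma 3.58.1 on log2(TPM + 1) and on log2(TPM + 0.1), RLE scaling, no filter or a TPM filter of 5, the 2 groups alone, the replicate number as a block, and each library left out. All 10 members are described, and from each other list up to 3 genes that passed with the smallest adjusted p, and whose groups did not overlap, could be named in each main comparison. The members and lists were chosen with earlier results of these data known. Same-numbered replicates did not deviate together (median correlation between -0.015 and 0.013 within a tissue). Upstream sequences came from the RefSeq assembly TAIR10.1, since the deposited tables hold no coordinates. 1 upstream window is not reported here. Intervals on fragments are exact 95% intervals.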

Additional observations from a re-analysis of the deposited data

Results flagged for a closer look

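ADH1 in the 4 tpst-1 shoot libraries was flagged because 1 library stood apart. Replicate 2 had 6.67 TPM and the others 4.79, 4.74 and 4.80 TPM, a gap of 0.968 of the group's range, beyond Dixon's 95% limit for 4 values. It was the 1 case in 45 groups of 4 checked, and chance flags about 1 in 20 groups.

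The remaining flags mark a change that differed between groups by a test of the difference in edgeR. The effect of tpst-1 on HRE1 in shoots was lower by -1.39 on the log2 scale with psyr1,2,3 than without (edgeR adjusted p = 0.0397). It missed the threshold in limma, on the log2(TPM + 1) scale (adjusted p = 0.1), in edgeR with the replicate number as a block (0.0719), and in edgeR with any 1 of 11 libraries left out (adjusted p between 0.0591 and 0.0905), that is, all of the 16 except WT replicate 4, tpst-1 replicates 2 and 4, psyr1,2,3 replicate 3 and tpst/psyr1,2,3 replicate 3.

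The effect of PSY5 was higher in shoots than in roots by 2.11 for PCO1 and by 2.99 for SAD6. SAD6 passed whichever single library was left out. PCO1 had an edgeR adjusted p between 0.0525 and 0.0966 without tpst-1 root replicate 2 or 3, PSY5-treated root replicate 1 or 2, or PSY5-treated shoot replicate 2.

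The effect of receptor loss differed between shoots and roots by 1.88 for ADH1, -1.33 for HRE1, 2.01 for HB1 and 2.64 for SAD6. ADH1 missed the threshold (edgeR adjusted p between 0.0517 and 0.115) with any 1 tpst-1 root library left out, or tpst/psyr1,2,3 root replicate 1 or 3, tpst-1 shoot replicate 3 or 4, or tpst/psyr1,2,3 shoot replicate 1 or 2. HRE1 missed it (0.0536 to 0.0952) without tpst-1 root replicate 2 or 3, tpst/psyr1,2,3 root replicate 3, tpst-1 shoot replicate 3, or tpst/psyr1,2,3 shoot replicate 1 or 4, and by limma on log2(TPM + 1) (0.0918). HB1 missed it (0.0506 to 0.0693) without tpst-1 root replicate 1, tpst/psyr1,2,3 root replicate 1 or 3, or tpst/psyr1,2,3 shoot replicate 4. SAD6 missed it (0.0504 to 0.0693) without tpst-1 root replicate 2 or 3, tpst/psyr1,2,3 root replicate 1 or 3, or tpst/psyr1,2,3 shoot replicate 2.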

How the results depend on the processing

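Of 96 member values tested in the 10 main comparisons 55 passed, and of 824 alternative values of these, 794 kept their call, 30 missed the threshold and 0 turned round. Of 648 alternative values of the others, 17 passed. The 55 and the 794 include the seedling calls of HRE2, which had to differ from 0 h because of the filter. These HRE2 values therefore say nothing about how firm the calls are. The number of members called in tpst-1 against WT shoots, 3, was 5 by DESeq2 and 1 with only these 2 groups fitted, where PCO1 (adjusted p = 0.0532) and HRE1 (0.116) missed the threshold. In psyr1,2,3 against WT shoots it was 1 by DESeq2 and by limma on log2(TPM + 1), and 2 with only the 2 groups fitted, against 0. In tpst/psyr1,2,3 against tpst-1 shoots it was 1 with only the 2 groups fitted, against 2. In tpst/psyr1,2,3 against psyr1,2,3 shoots it was 3 by limma on log2(TPM + 1) and 2 on log2(TPM + 0.1), against 5. Leaving out single libraries gave 2 to 5, 0 to 1, 1 to 2 and 2 to 5 in these 4 comparisons, 4 to 5 in both root comparisons with tpst-1, 8 to 9 at 2 h and 6 h, and 9 to 10 at 24 h and 7 d, where HRE2 dropped out of the test without a 0 h library because it reached a TPM of 1 only there. Between tpst-1 roots and shoots limma turned the differences of ADH1 (0.65) and LBD41 (0.13 on log2(TPM + 1), 0.14 on log2(TPM + 0.1)) upward; these settings moved the median of all genes by 0.76 and 0.88. With the replicate number as a block the count was 6 for PSY5 in roots (SAD6 -0.62, adjusted p = 0.0338) and 4 for tpst/psyr1,2,3 against psyr1,2,3 shoots (HB1 adjusted p = 0.0859), and unchanged in 10 further counts, those of the other 9 main comparisons and of tpst/psyr1,2,3 against PSY5-treated tpst-1 roots. The block also ended the LBD41 call in tpst/psyr1,2,3 against WT shoots (adjusted p = 0.0656, 1 member against 2) and that of the HRE1 interaction in shoots (adjusted p = 0.0719, 0 members against 1); the numbers are shared labels and do not pair the samples. HUP9 rests on few fragments outside 0 h, and a count of 0 in tpst-1 shoots allows up to 0.114 fragments per M sequenced.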

Other observations

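Relatives of the members and sucrose-degrading enzymes moved in ways not described above. LBD40 stayed low through the seedling series, with fitted log2 changes against 0 h of -4.77 at 6 h, -4.48 at 24 h and -5.43 at 7 d, given without a test because it passed the filter on low values only through 0 h. LBD39, a LOB-domain regulator of nitrogen responses, was higher at 7 d by 0.91 ± 0.12, and LBD37 by 0.43 ± 0.07 (SE; edgeR adjusted p = 5.43e-06 and 0.000148). GLB3, a truncated hemoglobin, changed by -0.76 ± 0.14 at 6 h (SE; edgeR adjusted p = 0.000743). SUS4, a sucrose synthase, changed by -3.44 ± 0.33 at 24 h in seedlings and rose by 0.93 ± 0.22 in tpst/psyr1,2,3 against tpst-1 shoots (SE; edgeR adjusted p = 1.01e-07 and 0.00652). SUS1, the enzyme's relative, rose there by 0.62 ± 0.18 and with PSY5 in tpst-1 shoots by 0.68 ± 0.18 (SE; edgeR adjusted p = 0.0256 and 0.0332).

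Within shoot groups the members were often low or high in the same library. Replicate 3 was the lowest PSY5-treated tpst-1 shoot library for 8 of the 9 members with reads in that group, and replicate 2 was the highest tpst/psyr1,2,3 library for 7 of 9. Replicate 4 was the highest psyr1,2,3 library for 6 of 9, and replicate 3 the highest WT library for 6 of 9. In 2 h seedlings replicate 2 was the lowest for 8 of 9.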
